A study of Homo sapiens with 24 samples.

Results

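NF-κB is a family of transcription factors that switch on inflammatory genes. The genes described here encode its subunits and feedback proteins that its own activity can induce, not all of which are inhibitors. They were taken as a fixed list by symbol: the 5 subunit genes *NFKB1*, *NFKB2*, *REL*, *RELA* and *RELB*, the IκB family genes *NFKBIA*, *NFKBIE* and *NFKBIZ*, and the feedback genes *TNFAIP3* and *BIRC3*. All 10 were found among the 25702 gene identifiers of the count files, and all 10 passed the low-count filter. IMR90 cells, human lung fibroblasts, had been infected with retroviruses carrying ER:HRAS(G12V), an oncogenic HRAS fused to the oestrogen receptor that 4-hydroxytamoxifen (4OHT) switches on. RNA-seq was performed on 24 libraries in 4 groups of 6 biological replicates, all at passage 23 to 28. Growing cells carried ER:HRAS(G12V) and the MSCV vector with no agent, and shHMGA1 cells carried ER:HRAS(G12V) and an MSCV miR30 hairpin against *HMGA1* with no agent. RIS cells (RAS-induced senescence) carried the MSCV vector and RIS+shHMGA1 cells the hairpin, both with ER:HRAS(G12V) and 6 days of 4OHT. Every group thus carried the ER:HRAS(G12V) construct, and no group received 4OHT without it. The hairpin groups rest on a single hairpin sequence in infected populations.

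In resting cells, IκB proteins such as the *NFKBIA* product IκBα hold dimers of RelA and p50 in the cytoplasm. Signals from IL-1 or TNF receptors activate the IκB kinase complex, IκBα is degraded, and the dimers enter the nucleus and bind κB sites. *NFKBIA*, *TNFAIP3* and *BIRC3* are themselves targets, so that the response limits itself. In senescent fibroblasts, NF-κB is known as a main driver of the secretory phenotype, with IL-1α, IL-6 and IL-8 among its products.

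Matches to the κB consensus were searched for in the reference promoters of these genes. Promoter windows of 300 bases, from 250 bases before to 50 after a RefSeq transcription start (GRCh38.p14), were held for 8 of the 10 genes, all but *RELB* and *NFKBIE*. The 10-base κB consensus was searched on both strands, and 7 of the 8 genes had a match in at least 1 window, with no match for *RELA*. Over all windows of the table, 13.3% of 27305 genes had one. The windows were placed on GRCh37, the build named hg19 in the study, by exact match. The following lines give 1 stretch each for 6 of the 7 matched genes, all but *REL*, 5′ to 3′ on the strand of the gene. Consensus bases are in capitals.
NFKB1: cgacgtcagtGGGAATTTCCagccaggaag
NFKB2: aaacgtcatGGGAATTCCCCcctccgggg
NFKBIA: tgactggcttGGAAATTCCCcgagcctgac
NFKBIZ: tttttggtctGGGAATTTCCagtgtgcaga
TNFAIP3: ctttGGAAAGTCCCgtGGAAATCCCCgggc
BIRC3: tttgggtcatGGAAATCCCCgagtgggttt
In *NFKB1* (chr4:103422457-103422486, plus strand) the match begins 49 bases before the start. In *NFKB2* (chr10:104154219-104154247, plus strand) the matches on the 2 strands overlap and the first begins 107 bases before the start, within an annotated exon of a longer *NFKB2* transcript. In *NFKBIA* (chr14:35874017-35874046, minus strand) the match begins 81 bases before the start. In *NFKBIZ* (chr3:101546601-101546630, plus strand) it begins 223 bases before, and in *BIRC3* (chr11:102188006-102188035, plus strand) 199 bases before. *TNFAIP3* (chr6:138188325-138188354, plus strand) has a pair of matches, beginning 67 and 55 bases before the start. Except for the *NFKB2* stretch and the last 4 bases of the *TNFAIP3* stretch, these stretches lie upstream of the GENCODE gene. These matches describe the letters of the reference, and binding was not measured here.

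The libraries held 8698070 to 23103424 counts, with a median of 10604084. Values are CPM, counts normalised by TMM library size, a scale that corrects for depth and composition. *HMGA1*, the target of the hairpin, lay between 54.4 and 262 CPM in the 12 hairpin libraries and between 639 and 861 CPM in the 12 vector libraries. Growing replicate 4 and RIS replicate 2 stood apart from their groups. On the first principal component, with 73.9% of the variance, growing replicate 4 lay at 77.3 against −84.3 to −57.2 for the other growing libraries, and RIS replicate 2 at −77.1 against 16.8 to 62.1. Growing replicate 4 therefore lay among the 4OHT libraries and RIS replicate 2 among those without 4OHT. Both were kept in their labelled groups, and results that rest on them are given with all 24 libraries and with the 22 others. They were picked out by this place on the component, after the data were seen. In the groups with 4OHT, numbers 5 and 6 also lay apart from numbers 1 to 4. *HMGA1* was lower in numbers 5 and 6 of both hairpin groups, also without 4OHT. It had 58.1 and 54.4 CPM there against 98.7 to 143 CPM in numbers 1 to 4 of shHMGA1. In RIS+shHMGA1 it had 60.0 and 75.1 CPM against 197 to 262 CPM. All 6 fibroblast markers were detected in every library, with a summed level of 4144 to 5572 CPM in RIS+shHMGA1 against 13325 to 19452 CPM in shHMGA1 libraries. Immune, endothelial and epithelial markers summed to at most 2.01 CPM in any library.

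**Figure D1:**
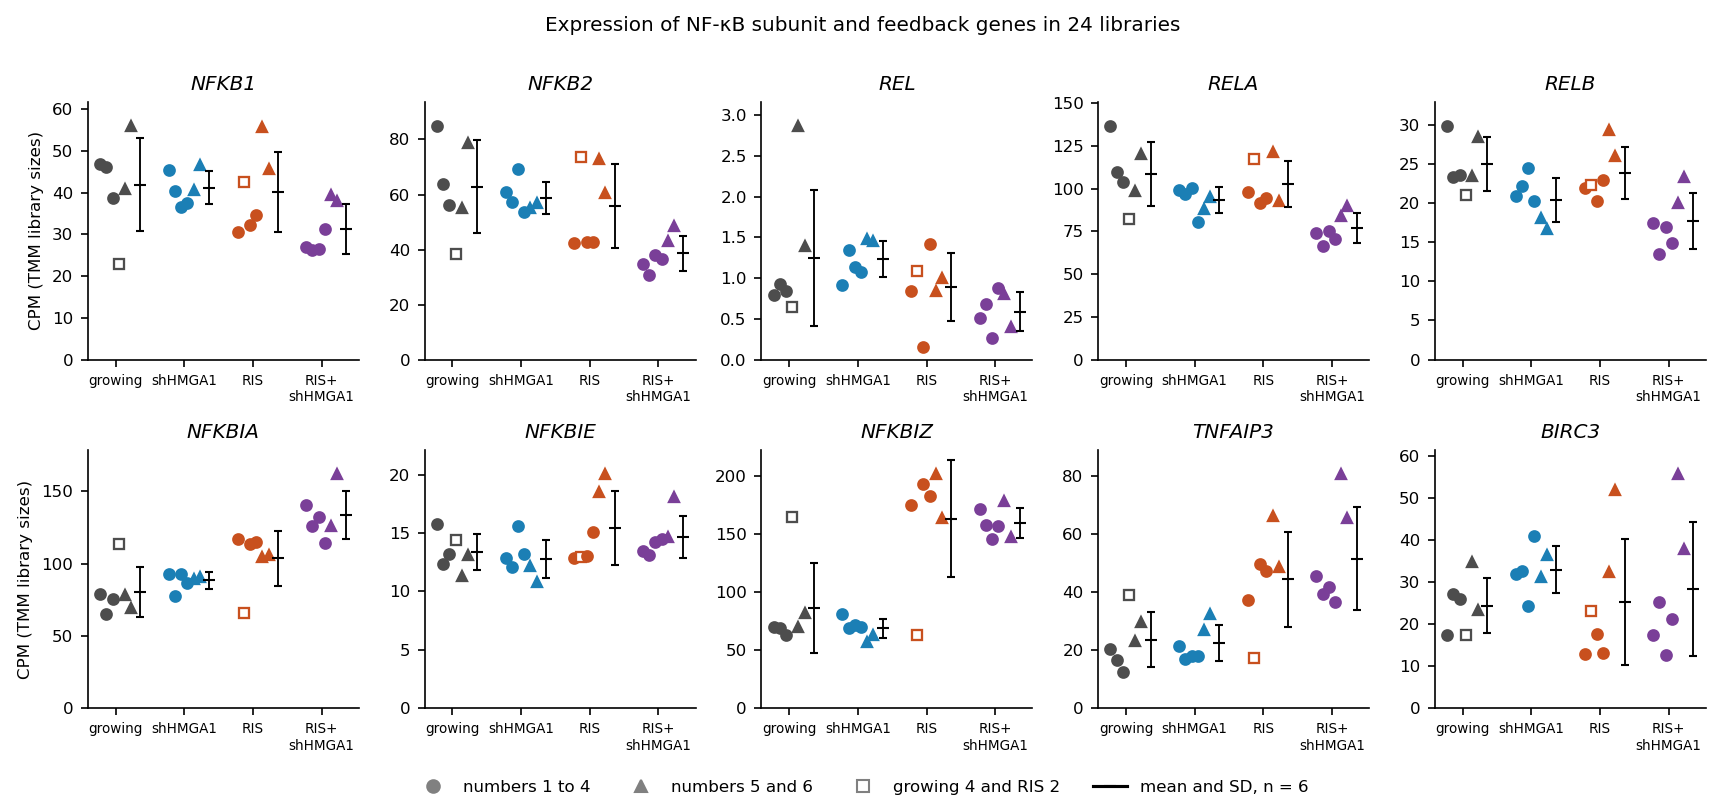
CPM of each gene in the 24 libraries by group, with points for libraries and bars for the mean and SD (n = 6). *NFKBIA*, *NFKBIZ* and *TNFAIP3* lie higher with 4OHT except in growing replicate 4 and RIS replicate 2 (open squares), and within each 4OHT group *BIRC3* is highest in numbers 5 and 6 (triangles).

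In RIS+shHMGA1 against shHMGA1 cells, a comparison that contains neither departing library, the feedback genes *NFKBIZ*, *TNFAIP3* and *NFKBIA* rose and the subunit gene *NFKB2* fell. *NFKBIZ* rose 2.33-fold, *TNFAIP3* 2.32-fold and *NFKBIA* 1.51-fold, and *NFKB2* fell to 0.657 of its level. A call needed a false discovery rate (FDR) below 0.01 together with a log2 fold change beyond 0.58 in either direction, so that 4 of 10 genes were called, beside 39.1% of the 13356 genes tested. The 10 genes had a median log2 fold change of −0.21, and all genes tested one of −0.02. Growing replicate 4 and RIS replicate 2 belong to neither group, but they share the fit and the low-count filter. Without them the same 4 genes were called, beside 44.4% of 13416 genes. The share of the 10 genes called was thus near that of all genes in both fits.

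*NFKBIZ* encodes IκBζ, a nuclear IκB protein that acts as a cofactor at inflammatory promoters. Its level in shHMGA1 libraries was 57.1 at the lowest, 69.4 at the median and 81.3 CPM at the highest, against 146, 158 and 179 CPM in RIS+shHMGA1. All 6 libraries with 4OHT lay above all 6 without it. Here and in the comparisons below, how many of all genes separate in this way was not counted. The log2 fold change of *NFKBIZ* was 1.22 (standard error 0.23), with an adjusted p = 0.00034 by the quasi-likelihood test of edgeR.

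*TNFAIP3* encodes A20, a ubiquitin-editing enzyme that shuts down signalling from TNF and IL-1 receptors. Its lowest, median and highest levels were 16.7, 19.7 and 32.3 CPM in shHMGA1 and 36.6, 43.5 and 80.6 CPM in RIS+shHMGA1. The groups did not overlap, and in both of them numbers 5 and 6 were the highest. Its log2 fold change was 1.21 (standard error 0.29, edgeR adjusted p = 0.0015).

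*NFKBIA* had 77.7, 90.2 and 92.6 CPM at the lowest, median and highest in shHMGA1, and 114, 129 and 162 CPM in RIS+shHMGA1. These groups did not overlap either. Its log2 fold change was 0.60 (standard error 0.14, edgeR adjusted p = 0.0012), close to the limit of 0.58. It was not called when numbers 5 and 6 and both departing libraries were left out, at 0.53, although its adjusted p was 6.0e-05.

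*NFKBIE*, which encodes IκBε, another cytoplasmic inhibitor, was not called. Its level ran from 10.8 to 15.6 CPM in shHMGA1 and from 13.1 to 18.1 CPM in RIS+shHMGA1, and these ranges overlap. Its log2 fold change was 0.20 (standard error 0.13), or −0.22 when libraries were scaled by total count.

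Among the subunits, *NFKB2* encodes p100, the precursor of p52 that is processed in the non-canonical pathway. Its lowest, median and highest levels were 53.5, 57.1 and 69.3 CPM in shHMGA1 and 30.6, 37.4 and 48.5 CPM in RIS+shHMGA1. Every library with 4OHT lay below every library without it. A log2 fold change of −0.60 (standard error 0.18, edgeR adjusted p = 0.0058) was found.

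*NFKB1*, which encodes p105, the precursor of p50, had 36.6 to 46.5 CPM in shHMGA1 and 26.2 to 39.3 CPM in RIS+shHMGA1. *RELA*, which encodes p65, the main activating subunit, had 80.6 to 101 CPM and 66.7 to 89.9 CPM. *RELB*, the partner of p52, had 16.7 to 24.5 CPM and 13.5 to 23.3 CPM. The ranges of these 3 genes overlap between the groups. Their log2 fold changes were −0.39 (standard error 0.17) for *NFKB1*, −0.28 (standard error 0.11) for *RELA* and −0.21 (standard error 0.13) for *RELB*, and none was called.

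*REL* encodes c-Rel, a subunit best known from lymphoid cells, and it was close to the limit of detection. It had 11 to 24 counts in shHMGA1 and 3 to 8 counts in RIS+shHMGA1 libraries, so that counting error is large in each value. The groups did not overlap, the log2 fold change was −1.10 (standard error 0.40), and the edgeR adjusted p of 0.022 missed the threshold. In GENCODE, 5702 bases of its canonical transcript are shared on the same strand with the unnamed gene ENSG00000267520, and how such reads were counted is not given in the sources used here.

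*BIRC3* encodes cIAP2, a ubiquitin ligase that conveys TNF receptor signals and protects cells from apoptosis. Its lowest, median and highest levels were 24.3, 32.2 and 41.0 CPM in shHMGA1 and 12.7, 23.2 and 55.8 CPM in RIS+shHMGA1. Within the latter group, numbers 5 and 6 had 55.8 and 37.8 CPM and numbers 1 to 4 had 12.7 to 25.3 CPM. With all libraries the log2 fold change was −0.21 (standard error 0.33, edgeR adjusted p = 0.58). With numbers 5 and 6 and both departing libraries left out it was −0.79 (standard error 0.19, adjusted p = 0.0011) and *BIRC3* was called lower, in a fit that called 47.7% of all genes. That choice of libraries was made after the data were seen. *BIRC3* shares 126 exon bases with a gene on the opposite strand, ENSG00000288528, and the strand setting of the counting is not given, although the library kit was a stranded one.

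**Figure D2:**
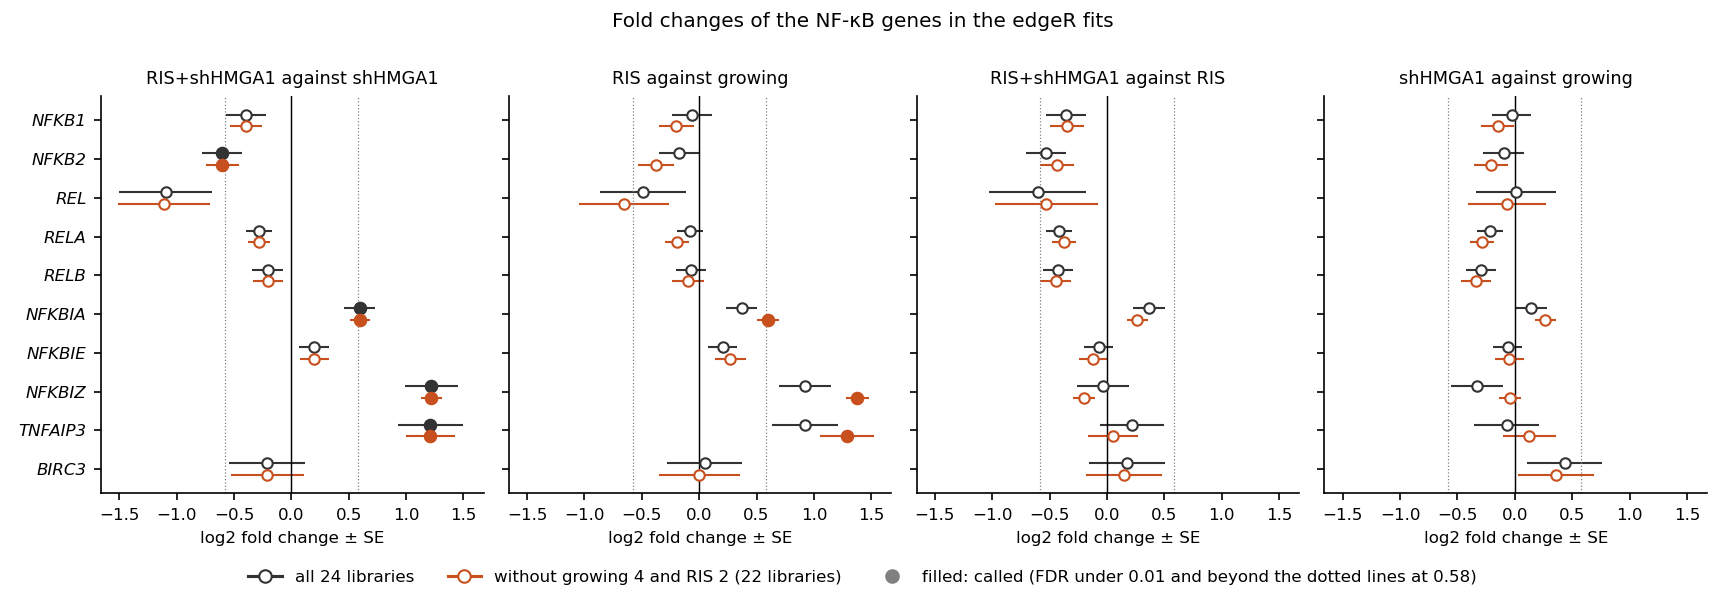
Log2 fold change of each gene with its standard error in 4 comparisons, fitted with all 24 libraries (dark) and without growing replicate 4 and RIS replicate 2 (orange); filled points were called, and dotted lines mark 0.58 on either side of 0. *NFKBIZ* and *TNFAIP3* lie at 1.22 and 1.21 in RIS+shHMGA1 against shHMGA1, and at 0.92 and 0.92 with all libraries and 1.38 and 1.29 without these 2 in RIS against growing.

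The choice of scaling matters for these values. When libraries were scaled by their total count instead of TMM, the median log2 fold change of all genes in RIS+shHMGA1 against shHMGA1 was −0.45 instead of −0.02. Calls then numbered 1 higher and 5 lower among the 10 genes, against 3 higher and 1 lower with TMM, and 1102 higher and 5314 lower over all genes (48% of them), against 2615 and 2605. *NFKBIZ*, *TNFAIP3* and *NFKBIA* kept a positive sign, at 0.80, 0.82 and 0.17, and *NFKB2* a negative one, at −1.02. Counts per cell were not measured, and in bulk RNA a change in the RNA of each cell cannot be told apart from a change in the make-up of the population.

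A ratio within a library does not depend on the scaling. The ratio of *NFKBIA* to *RELA* counts, inhibitor to main subunit, was 0.801 to 1.07 in shHMGA1 libraries, with a median of 0.947, and 1.49 to 1.90 in RIS+shHMGA1 libraries, with a median of 1.78. In RIS libraries it was 0.859 to 1.24 without replicate 2, which had 0.558. In growing libraries it was 0.575 to 0.795 without replicate 4, which had 1.38. The lowest RIS+shHMGA1 library thus lay above every other library of the series. The ratio shows that the counts changed unequally and not which of the genes moved, and it is given as a description with no test.

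**Figure D3:**
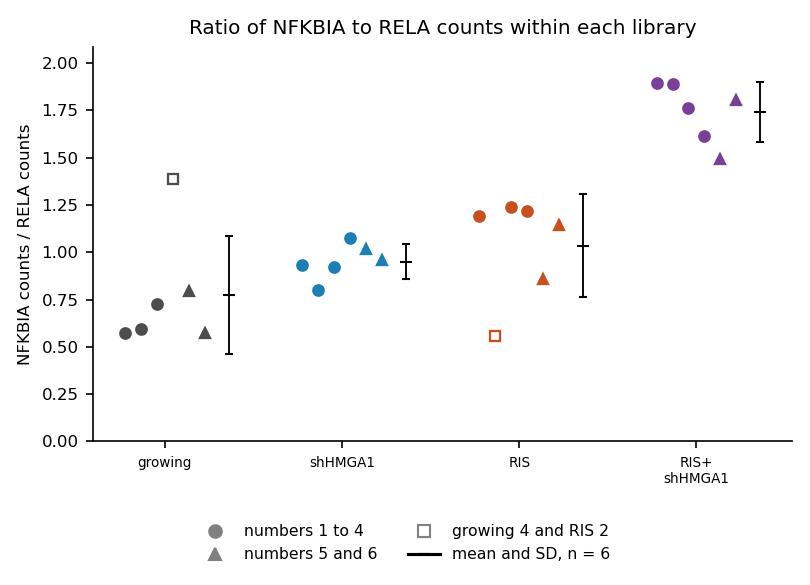
Ratio of *NFKBIA* counts to *RELA* counts in each of the 24 libraries by group, with the mean and SD (n = 6). All RIS+shHMGA1 libraries lie between 1.49 and 1.90, above the highest value of any other group, 1.38 in growing replicate 4.

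RIS was compared with growing cells to ask the same of RAS without the hairpin, and here the departing libraries decide the calls. With all 24 libraries none of the 10 genes was called by edgeR, beside 0% of all genes. At an unadjusted p under 0.05 there were 3 of the 10 genes, beside 33% of all genes. DESeq2 called 1 of the 10, *NFKBIZ*, beside 5.72% of the genes to which it gave an adjusted p. Without growing replicate 4 and RIS replicate 2, *NFKBIZ*, *TNFAIP3* and *NFKBIA* were called higher and none lower, beside 39.7% of genes tested. Because these 2 libraries were picked from the same data, leaving them out favours a difference between RIS and growing cells. The adjusted p-values of this comparison without them are therefore descriptive. The 3 genes that rose were among the 4 called in RIS+shHMGA1 against shHMGA1. That comparison shares no library with this one, but it shares the fit and called 44.4% of all genes without the departing libraries. How many of all genes were called in both comparisons was not counted.

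*NFKBIZ* had 62.8 to 82.1 CPM in 5 growing libraries and 165 CPM in replicate 4. In RIS it had 164 to 202 CPM in 5 libraries and 63.3 CPM in replicate 2. Apart from these 2 libraries the groups did not overlap, and such separation was not counted over all genes. The log2 fold change was 0.92 (standard error 0.23, edgeR adjusted p = 0.018) with all 24 libraries and 1.38 (standard error 0.10, adjusted p = 4.2e-11) without them.

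*TNFAIP3* had 12.4 to 29.7 CPM in the 5 growing libraries and 38.7 CPM in replicate 4. It had 37.03 to 66.1 CPM in the 5 RIS libraries and 17.1 CPM in replicate 2. The log2 fold change was 0.92 (standard error 0.29, edgeR adjusted p = 0.036) and, without these 2, 1.29 (standard error 0.24, adjusted p = 5.8e-05). *NFKBIA* had 65.1 to 78.7 CPM in growing and 104 to 117 CPM in RIS libraries, with replicate 4 at 114 and replicate 2 at 65.5 CPM. The log2 fold change was 0.37 (standard error 0.14, edgeR adjusted p = 0.064), or 0.60 (standard error 0.09, adjusted p = 7.2e-06) without them. In all 3 genes, growing replicate 4 lay above every other growing library and RIS replicate 2 below every other RIS library.

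None of the subunits was called between RIS and growing cells in either fit. *NFKB2* had 55.1 to 85.0 CPM in growing libraries other than replicate 4, which had 38.5 CPM, and in RIS it had about the same value in replicates 1, 3 and 4, at 42.4, 42.7 and 42.6 CPM, with 73.0 and 60.5 CPM in replicates 5 and 6 and 73.6 CPM in replicate 2. Its log2 fold change was −0.17 (standard error 0.18) with all libraries and −0.38 (standard error 0.16, edgeR adjusted p = 0.040) without the departing ones. When numbers 5 and 6 were left out as well, *NFKB2* was called lower, at −0.68 (standard error 0.14, adjusted p = 0.00023), beside 47.8% of all genes. *RELA* ran from 82.2 to 137 CPM in growing and from 91.6 to 122 CPM in RIS cells, *RELB* from 21.0 to 29.9 and from 20.2 to 29.4 CPM, and *NFKB1* from 23.0 to 56.0 and from 30.5 to 55.7 CPM. These ranges overlap, and growing replicate 4 gave the lowest growing value of each of these genes. Without both departing libraries the ranges still overlap, with *RELA* at 98.6 to 137 CPM in growing and 91.6 to 122 CPM in RIS cells. *RELB* then ran from 23.3 to 29.9 and from 20.2 to 29.4 CPM, and *NFKB1* from 38.6 to 56.0 and from 30.5 to 55.7 CPM. *REL* had 5 to 33 counts in growing and 2 to 13 counts in RIS libraries. Its log2 fold change was the largest in size among the subunits, at −0.49 (standard error 0.37) with all libraries and −0.65 (standard error 0.39, edgeR adjusted p = 0.15) without the departing ones. *NFKBIE* had 11.3 to 15.7 CPM in growing and 12.9 to 20.1 CPM in RIS cells.

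*BIRC3* in RIS cells again split by number, with 32.3 and 51.9 CPM in numbers 5 and 6 and 12.9 to 23.0 CPM in numbers 1 to 4. In growing cells it ran from 17.4 to 34.7 CPM, with numbers 5 and 6 at 34.7 and 23.2 CPM. Its log2 fold change against growing was 0.05 (standard error 0.33) with all libraries and −0.00018 without the 2 departing ones. Leaving out numbers 5 and 6 as well gave −0.67 (standard error 0.23, edgeR adjusted p = 0.013), which is not a call. The labels give no reason why numbers 5 and 6 lie apart.

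RIS+shHMGA1 was also set against growing cells, the contrast used in the study, which changes both RAS and the hairpin and shares its growing libraries with the previous comparison. *TNFAIP3* rose 2.20-fold, *NFKBIZ* 1.85-fold and *NFKBIA* 1.67-fold, and *NFKB2* fell to 0.614 of its level in growing cells. Thus 4 of 10 genes were called beside 45.9% of all genes with 24 libraries, and the same 4 without the 2 departing libraries, beside 56.9%. *RELA*, at −0.50 (standard error 0.11, edgeR adjusted p = 0.00094), and *RELB*, at −0.50 (standard error 0.13, adjusted p = 0.0026), passed the FDR but not the fold limit. Without growing replicate 4, *RELA* in all RIS+shHMGA1 libraries lay below the lowest growing library, 89.9 against 98.6 CPM. With total-count scaling the calls became 0 higher and 5 lower, all 5 subunit genes, around a median of −0.40 over all genes, 52% of which were called (1746 higher and 5196 lower). The signs of *TNFAIP3*, *NFKBIZ* and *NFKBIA* stayed positive, at 0.86, 0.60 and 0.42. When numbers 5 and 6 alone were left out, 0 of the 10 genes were called here and in RIS+shHMGA1 against shHMGA1 by edgeR, and of all genes 5 (0.0374%) and 0 were called. At an unadjusted p under 0.05 there were 7 and 9 of the 10 genes, beside 64.7% and 62.7% of all genes. Leaving out both departing libraries together with numbers 5 and 6 gave 7 calls, 3 higher and 4 lower, beside 60.5% of all genes, with *NFKB1* at −0.69, *RELA* at −0.72 and *RELB* at −0.73 joining *NFKB2*.

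The effect of the hairpin itself was asked in RIS+shHMGA1 against RIS and in shHMGA1 against growing, and none of the 10 genes was called in either. Against RIS, the 5 subunit genes had negative log2 fold changes in RIS+shHMGA1, of −0.36 (*NFKB1*), −0.53 (*NFKB2*), −0.60 (*REL*), −0.42 (*RELA*) and −0.43 (*RELB*). *NFKBIA* had 0.37. *RELA* had the lowest adjusted p of these. Its RIS+shHMGA1 libraries had 66.7, 74.6 and 89.9 CPM at the lowest, median and highest, and its RIS libraries 91.6, 96.2 and 122 CPM. The groups thus did not overlap, by a narrow gap, and how many of all genes separate in this way was not counted. The edgeR adjusted p of *RELA* was 0.015 with all libraries and 0.0079 without the departing ones, where the log2 fold change of −0.38 still missed the fold limit. Over all genes, edgeR called 2.55% with 24 libraries and 12.5% with 22. At an unadjusted p under 0.05 edgeR had 5 of the 10 genes, beside 49.8% of all genes, and DESeq2 called none of the 10, beside 12.2%. Total-count scaling made *NFKB2*, *RELA* and *RELB* calls, at −0.84, −0.72 and −0.72, around a median of −0.37 over all genes, of which 20.8% were called. *NFKBIZ* and *TNFAIP3* were at −0.03 (standard error 0.23) and 0.22 (standard error 0.28), and at −0.20 (standard error 0.10) and 0.05 (standard error 0.22) without the departing libraries.

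In shHMGA1 against growing cells, with no 4OHT, log2 fold changes ran from −0.33 for *NFKBIZ* to 0.43 for *BIRC3* with all libraries. *RELB* alone had an unadjusted p under 0.05 with edgeR, beside 13.2% of all genes. Over all genes edgeR called 0.27%, or 2.59% with 22 libraries, and DESeq2 called none of the 10 beside 0.691%. Without growing replicate 4 and RIS replicate 2, *NFKBIA* was at 0.27 (standard error 0.09, edgeR adjusted p = 0.042) and *RELA* at −0.29 (standard error 0.10, adjusted p = 0.051). Both lie under the fold limit. The interaction, which asks whether 4OHT changed a gene differently with and without the hairpin, called none of the 10 genes. Over all genes edgeR called 0% with 24 libraries and 0.00745% with 22. None of the 10 had an unadjusted p under 0.05 in edgeR, beside 10.3% of all genes, and DESeq2 called none of them, beside 0.0196%. Its standard errors ran from 0.16 for *RELA* to 0.55 for *REL*. Differences of that size would not be seen, and larger ones could also miss the thresholds.

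Levels of different genes were compared as CPM per kilobase of the canonical transcript. In growing cells without replicate 4, *NFKBIA* was highest with 47.1 CPM per kb, followed by *RELA* (45.2), *NFKB2* (22.5), *NFKBIZ* (18.0), *RELB* (11.4) and *NFKB1* (11.3). *NFKBIE* (5.61), *TNFAIP3* (4.37), *BIRC3* (3.74) and *REL* (0.123) were lower. In RIS+shHMGA1 cells the means were 85.6 ± 10.6 CPM per kb for *NFKBIA* and 40.7 ± 3.35 for *NFKBIZ* (SD, n = 6), against 30.5 ± 3.45 for *RELA* and 12.8 ± 2.10 for *NFKB2*. *RELA* and *NFKBIA*, near each other in growing cells, were apart here, and *NFKBIZ* stood above *RELA*. Between *RELB* and *NFKB1*, at 7.82 ± 1.57 and 7.73 ± 1.47 CPM per kb, the difference was smaller than the spread.

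Over the 24 libraries the Pearson correlation of log2 CPM was 0.81 to 0.86 among *NFKBIA*, *NFKBIZ* and *TNFAIP3*, and 0.64 to 0.90 among *NFKB1*, *NFKB2*, *RELA* and *RELB*. Between these 3 genes and the 5 subunit genes every value was negative, from −0.74 for *NFKBIA* and *NFKB2* to −0.16 for *TNFAIP3* and *RELB*. The other 3 genes went less clearly with either side. *REL* had 0.23 to 0.49 with the other subunits. *BIRC3* ran from −0.26 with *NFKBIZ* to 0.53 with *NFKB1*, and *NFKBIE* from −0.31 with *REL* to 0.52 with *NFKBIZ*, with 0.42 for *RELB*. Differences between the groups enter all of these values. After each group's mean was subtracted in the 22 libraries, *NFKBIZ* and *TNFAIP3* had 0.24, *NFKBIA* and *TNFAIP3* 0.20, and *NFKBIA* and *NFKBIZ* −0.15. Between these 3 genes and the 5 subunit genes, values then ran from −0.20 for *NFKBIA* and *REL* to 0.73 for *TNFAIP3* and *NFKB1*. *NFKBIA* and *NFKB2* went from −0.74 to 0.04. *NFKB2* had 0.84 with *RELA* and 0.84 with *RELB*, and *NFKB2* and *NFKBIE* went from 0.11 to 0.82. *NFKB1* and *TNFAIP3* went from −0.23 to 0.73, and *NFKB1* and *BIRC3* from 0.53 to 0.66. The points share library, depth and scaling, and no test was made.

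Of all other genes tested, genes with a pattern most like a member over the 24 libraries were *CHST2* (r = 0.98) and *CSF3* (r = 0.98), a cytokine gene, for *NFKBIZ*. *NFKBIA* went most closely with *ADM* (0.96) and the antisense gene *ATP2B1-AS1* (0.96), and *TNFAIP3* with *ALAS1* (0.95) and *SMAP2* (0.95). For the subunits they were *MEF2D* (0.97) for *NFKB2*, *UBA1* (0.97) and *SLC16A3* (0.97) for *RELA*, and *ATP2A2* (0.94) for *NFKB1*. *RELB* was most like *CD276* (0.91) and *TICAM1* (0.89), the latter encoding the adaptor TRIF. *NFKBIE* was most like *EGR1* (0.85) and *PLK3* (0.84), *BIRC3* like *RBM39* (0.85) and *POSTN* (0.84), and *REL* like *FAM199X* (0.81) and *NUP160* (0.79). The 10 genes themselves were left out of this search, so that none could appear as a neighbour of another.

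The surrounding pathway was described from 7 lists, of which 65 genes could be tested. Of these, 30 were called in RIS+shHMGA1 against shHMGA1 cells, 23 higher and 7 lower, beside the 39.1% over all genes. Ligands and targets held the largest changes, while most adaptors, kinases and inhibitors were not called.

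Among ligands, 3 of the 4 tested rose and 1 fell, with a median log2 fold change of 3.97. *IL1A*, an alarmin that drives NF-κB in senescent cells, had 30.6 to 57.2 CPM in shHMGA1 and 490 to 740 CPM in RIS+shHMGA1, a log2 fold change of 3.69 (standard error 0.75). *IL1B* had 4.25 and *IL33* 5.05, while *TNFSF12*, which encodes TWEAK, was at −0.88. The ligand genes *TNF*, *LTA*, *LTB*, *CD40LG* and *TNFSF13B* were too low to test. Of 6 tested receptors, *TNFRSF1B*, which encodes TNF receptor 2, rose from 5.31 to 12.9 CPM in shHMGA1 to 22.9 to 43.4 CPM, with a log2 fold change of 1.96 (standard error 0.40). *IL1RAP*, the IL-1 receptor accessory chain, fell by 0.85 on the log2 scale, and 4 receptors were not called.

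Of 16 adaptors and ubiquitin ligases, 3 rose and 2 fell. *TRAF1*, an adaptor and itself a target, had the largest rise, *IRAK2*, an IL-1 receptor-associated kinase, was at 1.09, and *TRAF5* at −0.76. *UBE2N*, the enzyme that builds the ubiquitin chains read by the IκB kinase complex, was at 0.88. Among 10 kinases only *IKBKG*, the scaffold NEMO, was called, at −0.61. None of the 3 other IκB genes was called, with *BCL3* the only one called against growing cells, at −0.61. Of 7 other inhibitors only *ZC3H12A* rose, at 1.54, the gene of an RNase that degrades cytokine mRNAs.

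Of the 19 tested target genes, 15 rose and 2 fell, with a median log2 fold change of 2.70. The largest rises were *CXCL5* at 6.41 (standard error 1.51), *CCL20* at 6.05 (standard error 1.20), *CXCL3* at 5.99 (standard error 1.33) and *CXCL2* at 5.94 (standard error 1.16), all chemokine genes. *VCAM1*, an adhesion molecule gene, fell but had at most 3.78 CPM in shHMGA1. Apart from *ICAM1*, at 1.06, each target that rose had a larger log2 fold change than *NFKBIZ*, at 1.22. Against growing cells, 25 of the 65 genes were called in RIS+shHMGA1, 15 higher and 10 lower, beside 45.9% of all genes, and 38 without the departing libraries, beside 56.9%. In RIS against growing cells edgeR called none of the 65 with 24 libraries, with 25 at an unadjusted p under 0.05, beside 33% of all genes, and 5 called by DESeq2, beside 5.72%. Without these 2 libraries edgeR called 28, beside 39.7% of all genes, with 16 of 19 targets higher, from 0.84 for *CXCL6* to 7.11 for *CXCL5*.

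**Figure D4:**
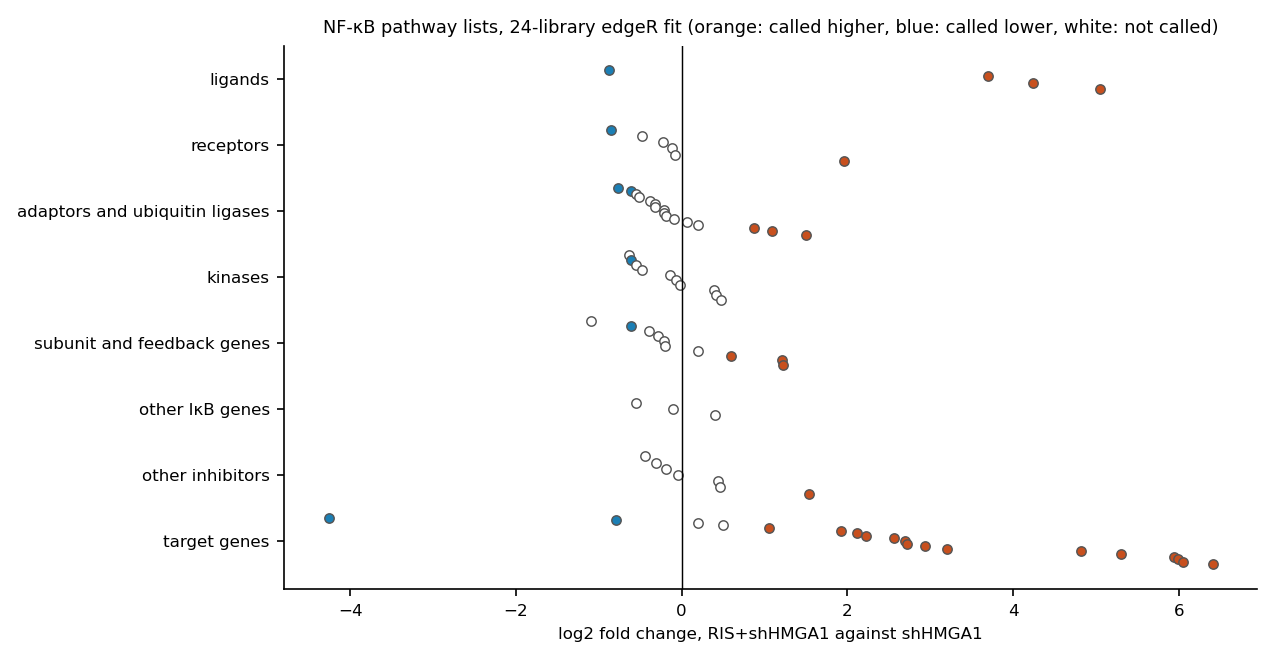
Log2 fold change in RIS+shHMGA1 against shHMGA1 of every tested gene of the pathway lists, 1 point per gene, coloured where called. Ligands and target genes reach 5.05 and 6.41, while the subunit and feedback genes reach 1.22 and the kinases hold no call above 0.

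Between RIS+shHMGA1 and RIS cells 2 of the 65 pathway genes were called with all libraries, beside 2.55% of all genes, and 8 without the departing ones, beside 12.5%, so that the lists as a whole stood near the background. *CCL2*, a monocyte chemokine gene, had 9.25 to 28.9 CPM in RIS and 65.2 to 257 CPM in RIS+shHMGA1, with a log2 fold change of 2.67 (standard error 0.36, edgeR adjusted p = 0.00029). The groups did not overlap. *IL1RAP* was at −0.84 (standard error 0.19). Without the 2 departing libraries, 6 of 19 targets were higher, among them *CXCL3* at 1.45, *BCL2A1* at 1.44 and *CXCL8* at 1.32, while none of the 10 subunit and feedback genes was called.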

How the data were processed

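Reads of stranded mRNA-seq libraries were mapped by the authors to hg19 with STAR 2.5.0b, filtered with Cutadapt 1.10.0 at a mapping quality of 20, and counted on genes with Rsubread; the annotation and strand setting are not given in the sources used here. The deposited values are raw counts, whole numbers per Entrez identifier, and symbols came from a RefSeq table (23696 of 25702 identifiers). Totals were 8698070 to 23103424 per library. Counting error relative to the level was largest for *REL*, at 2 to 33 counts per library. Genes were kept by filterByExpr, normalised by TMM and tested by quasi-likelihood in edgeR 4.0.16 (R 4.3.3) on group means of all 24 libraries. Calls used the study's thresholds, an FDR (Benjamini-Hochberg) of 0.01 and 0.58 on the log2 scale. Scripts were tested on simulated data. The members and lists were chosen with earlier results of these data known. Named were all members, *HMGA1*, up to 4 called genes per pathway list with the largest changes, and the 2 genes most correlated with each member (some are not reported here), on log2 CPM with a prior count of 2; *CXCL6*, *ICAM1*, *VCAM1* and the untested ligands were named after their values were seen. Alternatives were DESeq2 1.42.0, RLE and total-count scaling, other low-count filters (none, or 1 CPM in 6 samples), an FDR of 0.05, the replicate number as a block, contrast samples only and libraries left out. Within each group, no pair of libraries differed by as little as sampling noise. *RELB* and *NFKBIE* promoters were not analysed here.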

Additional observations from a re-analysis of the deposited data

Results flagged for a closer look

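For each of the 10 genes and 4 groups, the gap of the highest or lowest library to its neighbour was divided by the range of the 6 libraries and set against Dixon's 95% critical value. Of 40 tests, 6 lay beyond it, where chance gives about 2, at 1 in 20. *NFKBIZ* and *NFKBIA* were flagged in growing replicate 4, with gaps of 0.724 and 0.661 of the range, and in RIS replicate 2, with 0.818 and 0.808. These are the 2 libraries that lay apart from their groups on the first principal component. The other flags were *REL* in RIS replicate 3 (0.714), which had 2 counts, and *NFKBIE* in RIS+shHMGA1 replicate 6 (0.650), the highest of its group at 18.1 CPM. None of the 10 genes passed the threshold in the test of the interaction between hairpin and 4OHT.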

How the results depend on the processing

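Direction was kept under all 21 alternatives by the 8 member calls made in RIS+shHMGA1 against growing and against shHMGA1, with 14 to 20 of the 21 past the thresholds for each. Numbers of members called in RIS against growing were 2 at an FDR of 0.05, 1 with DESeq2, 3 without the departing libraries (3 also with the block or DESeq2) and 4 without numbers 5 and 6 as well, against 0. In RIS+shHMGA1 against growing they were 0 without numbers 5 and 6 and 7 without the departing libraries too, against 4, and in RIS+shHMGA1 against shHMGA1 0 without numbers 5 and 6. In RIS+shHMGA1 against RIS total-count scaling gave 3. Leaving out single replicates gave 0 to 2 in RIS against growing (2 without growing replicate 4, RIS replicate 2, number 2 or number 4), 1 to 4 in RIS+shHMGA1 against growing and 2 to 4 in RIS+shHMGA1 against shHMGA1. Lowest were the fits without number 1 (1 call) and number 5 (2 calls) against growing and without number 2 (2 calls) against shHMGA1; the causes were not tested. Pathway genes called in RIS+shHMGA1 against growing, 25 in the main fit, were 38 without the departing libraries (also 38 with the block or DESeq2), 38 with total-count scaling, 0 without numbers 5 and 6, 41 without both, and 9 to 38 without single replicates.

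Of 1248 member values under alternatives, 76 had another sign than with the main settings. In 54 of them both values lay within 1 standard error of 0 and neither was called. The other 22, none of a called value, were as follows. In RIS against growing, *REL* was at 0.089, *NFKBIE* at −0.040 and *BIRC3* at −0.40 without numbers 5 and 6, and *NFKBIE* at −0.018 and *BIRC3* at −0.67 without the departing libraries too. In RIS+shHMGA1 against growing, *NFKBIE* was at −0.20 with total-count scaling, −0.023 without numbers 5 and 6 and −0.021 without the departing libraries too, where *BIRC3* was at −0.31; against shHMGA1, *NFKBIE* was at −0.22 with total-count scaling. Without the departing libraries and numbers 5 and 6, *NFKBIZ* was at 0.13 and *TNFAIP3* at 0.17 in shHMGA1 against growing (0.16 for *TNFAIP3* without the departing libraries and with the block), and *TNFAIP3* at −0.16 in RIS+shHMGA1 against RIS. The interaction was −0.0023 without the departing libraries, −0.16 with total-count scaling and −0.13 without all of these for *NFKBIA*, −0.16, −0.15 with the block, −0.15 with DESeq2 and −0.38 without numbers 5 and 6 for *NFKBIZ*, and −0.32 for *TNFAIP3*.

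Whether the replicate numbers pair the libraries was not settled. Only 3 of 6 same-numbered pairs of RIS and growing, and of RIS+shHMGA1 and growing, had deviations correlated over 0.1. In the other contrasts 5 of 6 did. In shHMGA1 against growing, same-numbered pairs had 0.07 to 0.48, and the mean with other numbers ran from −0.20 to 0.04. Contrasts with growing or RIS include the departing libraries. With the number as a replicate block, 0, 4, 4, 0, 0 and 0 members were called in the 6 contrasts, as without it, and 31 pathway genes. Depth limits *REL* alone, at 2 to 33 counts.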
